A study of Mus musculus with 24 samples.

Results

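The 10 genes described here encode the desmosome, the spot-like junction that ties the keratin filaments of neighbouring epithelial cells together. They were taken by symbol, as a list given in advance: the desmogleins Dsg2 and Dsg3, the desmocollins Dsc2 and Dsc3, desmoplakin (Dsp), plakoglobin (Jup), the plakophilins Pkp1, Pkp2 and Pkp3, and Perp. The 10 are among 47643 genes in each count file. Each had reads in all 24 libraries, and all 10 were among the 10563 genes that passed the filter on low counts and were tested.

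The libraries came from organoids grown in Matrigel from cells labelled salivary gland stem/progenitor cells, from C57BL/6 mice. Glands were collected 14 or 90 days after irradiation (IR) or a sham treatment, and the organoids were sequenced at passage 1 or passage 2. That gives 8 groups of 3 libraries: sham and IR at day 14, passage 1, at day 14, passage 2, at day 90, passage 1, and at day 90, passage 2. No genotype, age of the mice or radiation dose is given in the sources used here, and all groups shared a medium with EGF, FGF2, insulin, dexamethasone and Y-27632. The cells themselves had left the gland before they were measured, so each comparison is of cultures grown from IR and sham glands. The series title names Bmp4 and the regenerative response after irradiation. Since nothing in the labels ties replicates to separate mice or cultures, the p-values below describe the spread among these libraries alone, and that spread may be technical.

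In a desmosome, desmogleins and desmocollins, which are cadherins, meet in the space between cells. Their tails bind plakoglobin and plakophilins, and these bind desmoplakin, which holds the keratin filaments. Simple epithelia such as ducts use mainly Dsg2, Dsc2 and Pkp2, and stratified epithelia and basal cells add Dsg3, Dsc3 and Pkp1. Perp is a membrane protein of desmosomes and a known target of p53 and p63.

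A library held 1151608 to 3189466 counts on genes, and the 10 desmosome genes together took 0.222% to 0.534% of them. Gm42418, a predicted gene whose locus overlaps ribosomal RNA, took 11.8% to 29.0%. In 3 libraries that share lay more than 5 percentage points from the median of the group: IR replicate 3 at day 14, passage 2 (17.2%), sham replicate 1 at day 90, passage 1 (28.6%), and IR replicate 1 at day 90, passage 2 (13.5%, against 24.3% and 23.02% in the other IR libraries there). Epithelial markers were high in all 24 libraries: Epcam lay at 358 to 623 CPM and Cdh1 at 879 to 1640 CPM (CPM, counts divided by library size after TMM scaling). Of 8 mesenchymal markers, Col3a1 and Pdgfrb had no count, 5 had 3 to 29 counts over all libraries, and Vim lay at 11.8 to 127 CPM in all 24. Heart muscle is also rich in desmosomal proteins. Of 6 markers of heart and other striated muscle, Actn2 and Des had no count and 3 had 1 to 4 counts. Tnnt2, a troponin gene, lay at 18.1 to 170 CPM in all 24 libraries. Tnnt2 was the 1 gene of that list that could be tested, and it was called higher in the mean IR effect described below (log2 fold change 0.73). In such 3' libraries the count of a gene is not expected to grow with its length. Whether the 3' ends of all genes were captured and annotated equally well was not tested. An order of levels between genes is therefore approximate.

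Desmoplakin and Perp made up most of the counts on the desmosome genes. Dsp had a median of 1943 CPM over the 24 libraries (910 to 3095) and Perp of 1139 CPM (754 to 1824). Of the counts on the 10 genes, Dsp took 48.5% ± 6.97 and Perp 29.2% ± 6.60 (mean ± SD over 24 libraries). After them came Pkp1, a plakophilin of stratified epithelia, at a median of 213 CPM (96.1 to 300), and Dsg2 at 168 CPM (121 to 244). Jup and Pkp3 both had a median of 104 CPM, with ranges of 56.9 to 148 and 48.9 to 257, and Dsc3 (93.1 CPM), Dsc2 (77.9 CPM) and Dsg3 (68.8 CPM) lay just below. These 5 overlapped in range, so their order is not fixed by the medians. Pkp2, the plakophilin of simple epithelia and heart, was the lowest of the 10 at 15.1 CPM (7.39 to 26.8) and rests on 13 to 66 reads a library.

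The cadherin most even across libraries was Dsg2, whose levels spanned 2.01-fold. Dsg3 spanned 11.8-fold, the widest range of the 10 genes, followed by Pkp3 (5.26-fold), Dsc3 (4.41-fold) and Dsc2 (4.37-fold). The other cadherin genes, those used in skin, were near or at 0: Dsg4 had no count in any library, Dsg1c had 1, Dsc1 had 7 and Dsg1a had 18, while Dsg1b reached 29.3 CPM in its highest library with a median of 1.23 CPM. Dsc3, Dsc2, Dsc1, Dsg1c, Dsg1a, Dsg1b, Dsg4, Dsg3 and Dsg2 are neighbours in that order in mouse assembly GRCm38.p6, so Dsg3 and Dsg2, the most and the least variable of the 4 cadherins listed first, lie side by side.

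**Figure D1:**
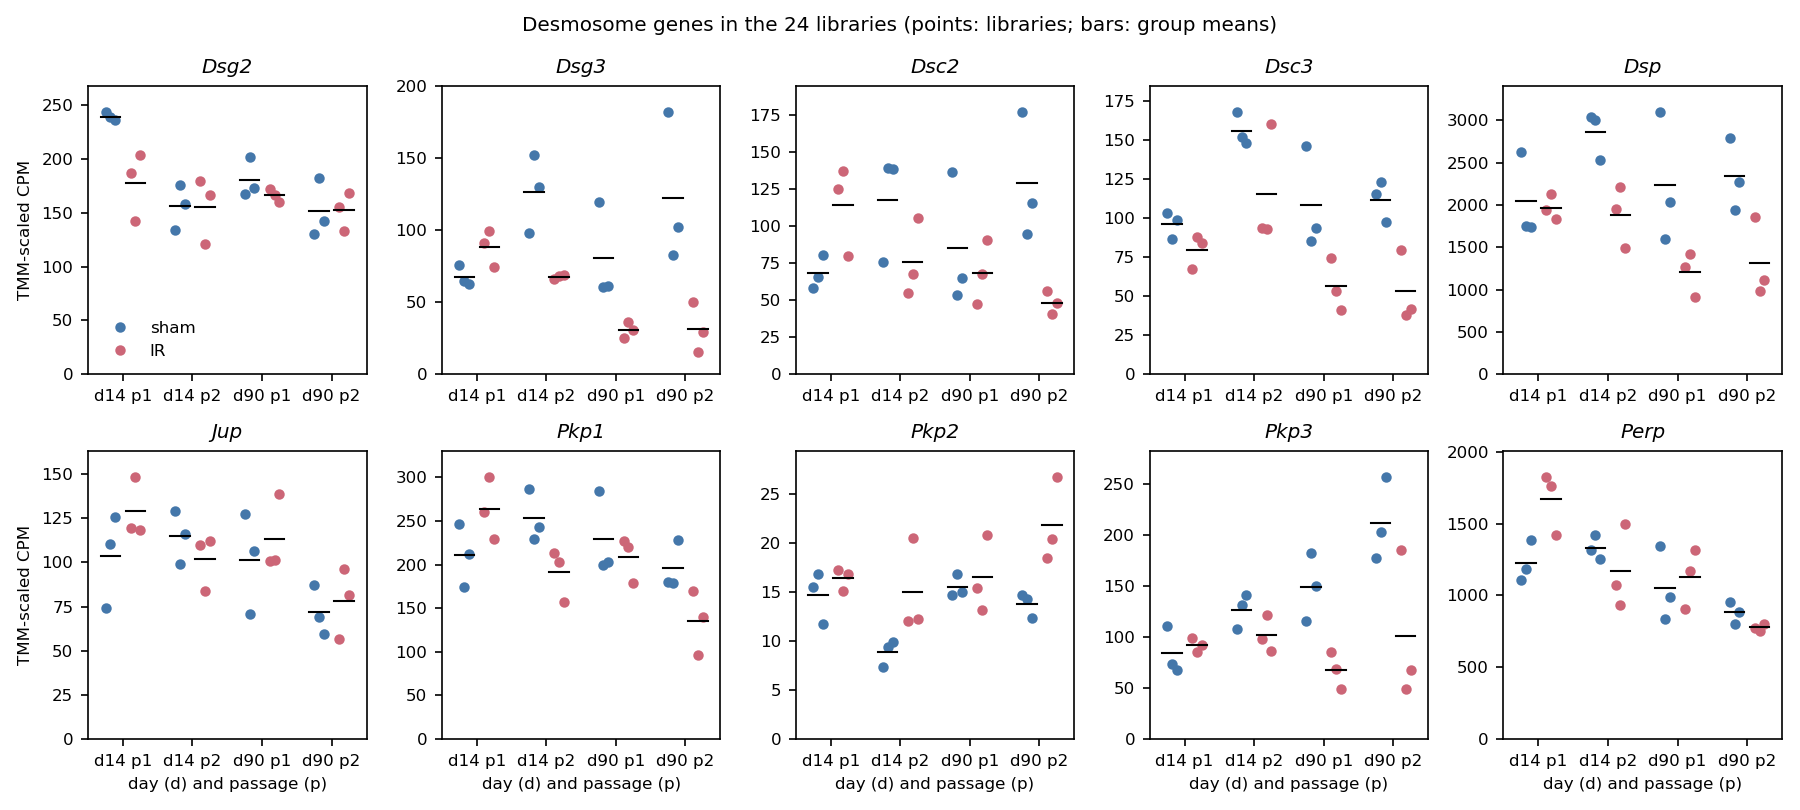
TMM-scaled CPM of each desmosome gene (vertical axis, from 0) in the 4 combinations of day (d) and passage (p) on the horizontal axis; points are libraries, blue for sham and red for IR, and bars are means of 3 libraries. Dsg3 is at 25.3 to 36.3 CPM in the IR libraries of day 90, passage 1 and 15.5 to 50.005 CPM in those of passage 2, below every sham library, while Dsg2 in the same libraries overlaps sham.

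Of the 4 comparisons of IR with sham organoids, the one at day 90, passage 2 called desmosome genes. There Dsg3, Dsc2 and Dsc3 fell, and 0 of the 10 genes rose, by the quasi-likelihood test of edgeR with Benjamini-Hochberg adjustment over all tested genes at 0.05. Over all genes that comparison called 4.92% in either direction and 1.95% lower. The median log2 fold change of the 10 genes was −0.68, against 0.01 over all tested genes.

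Dsg3, the desmoglein of basal and stratified cells, was measured at 182, 82.7 and 102 CPM in the sham libraries and at 50.005, 15.5 and 29.2 CPM in the IR libraries. Every IR library lay below every sham library, and the log2 fold change was −1.93 (SE 0.33, adjusted p = 0.00175). The call was lost when only these 2 groups were fitted (adjusted p = 0.0757) and held in the 15 other alternatives for this comparison.

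Dsc2, a desmocollin found in nearly all epithelia, was at 177, 94.5 and 116 CPM in sham and at 56.3, 40.5 and 48.3 CPM in IR. Its log2 fold change was −1.41 (SE 0.34, adjusted p = 0.0168), and the groups did not overlap. Dsc3, the desmocollin of basal cells, was at 115, 123 and 97.3 CPM in sham and at 79.8, 38.0 and 41.8 CPM in IR, again with no overlap, and fell by 1.06 on the log2 scale (SE 0.27, adjusted p = 0.0214). Both calls depended on single libraries. Neither was called once sham replicate 1, or replicate 2 or 3 of IR, was left out (adjusted p up to 0.106 for Dsc2 and up to 0.146 for Dsc3), and Dsc3 was also lost without sham replicate 2 (adjusted p = 0.0616), in the 2 groups alone (adjusted p = 0.111) and when the Gm42418 share was a covariate (adjusted p = 0.0584).

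At day 90, passage 2 edgeR called no gene of a plaque protein, while DESeq2 called Dsp and Pkp3 as well as the 3 cadherins, with 628 of 10563 genes called. Desmoplakin was at 2796, 1945 and 2267 CPM in sham and at 1862, 986 and 1110 CPM in IR. These groups did not overlap, and the log2 fold change was −0.82 (SE 0.26, adjusted p = 0.0687). Pkp3, a plakophilin of most epithelia, was at 177, 203 and 257 CPM in sham and at 186, 48.9 and 67.7 CPM in IR. IR replicate 1 lay within the sham range and the other 2 IR libraries far below it, and the log2 fold change was −1.06 (SE 0.32, adjusted p = 0.0613). Pkp1 had −0.53 (SE 0.20, adjusted p = 0.141), and Pkp2 was the plakophilin with a positive value, 0.66 (SE 0.22, adjusted p = 0.0879), at 14.7, 14.3 and 12.4 CPM in sham against 18.5, 20.5 and 26.8 CPM in IR.

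Dsg2, Jup and Perp stayed closer to sham. For Dsg2 the log2 fold change was 0.01 with a 95% interval of −0.33 to 0.35, for Jup 0.11 (−0.37 to 0.59), and for Perp −0.18 (−0.57 to 0.21). The intervals leave room for changes of up to about those bounds. In all, 7 of the 10 genes had libraries that did not overlap between IR and sham, as had 20.6% of all genes: Dsg3, Dsc2, Dsc3, Dsp, Pkp1, Pkp2 and, by a margin of under 1 CPM, Perp. An unadjusted p under 0.05 was found for 7 genes, with Pkp3 in place of Perp, and for 1929 of 10563 genes.

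IR replicate 1 at day 90, passage 2 had the highest Dsg3, Dsc2, Dsc3, Dsp, Pkp1 and Pkp3 of the 3 IR libraries, and it is the one with the deviating Gm42418 share. When it was left out, 7 of the 10 genes were called: Dsg3, Dsc2, Dsc3, Dsp, Pkp1 and Pkp3 lower and Pkp2 higher, while calls over all genes went from 520 to 1194. With all 3 deviating libraries left out, an alternative chosen after seeing the data, the same 7 genes were called, and calls over all genes went from 520 of 10563 to 1461 of 10761.

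**Figure D2:**
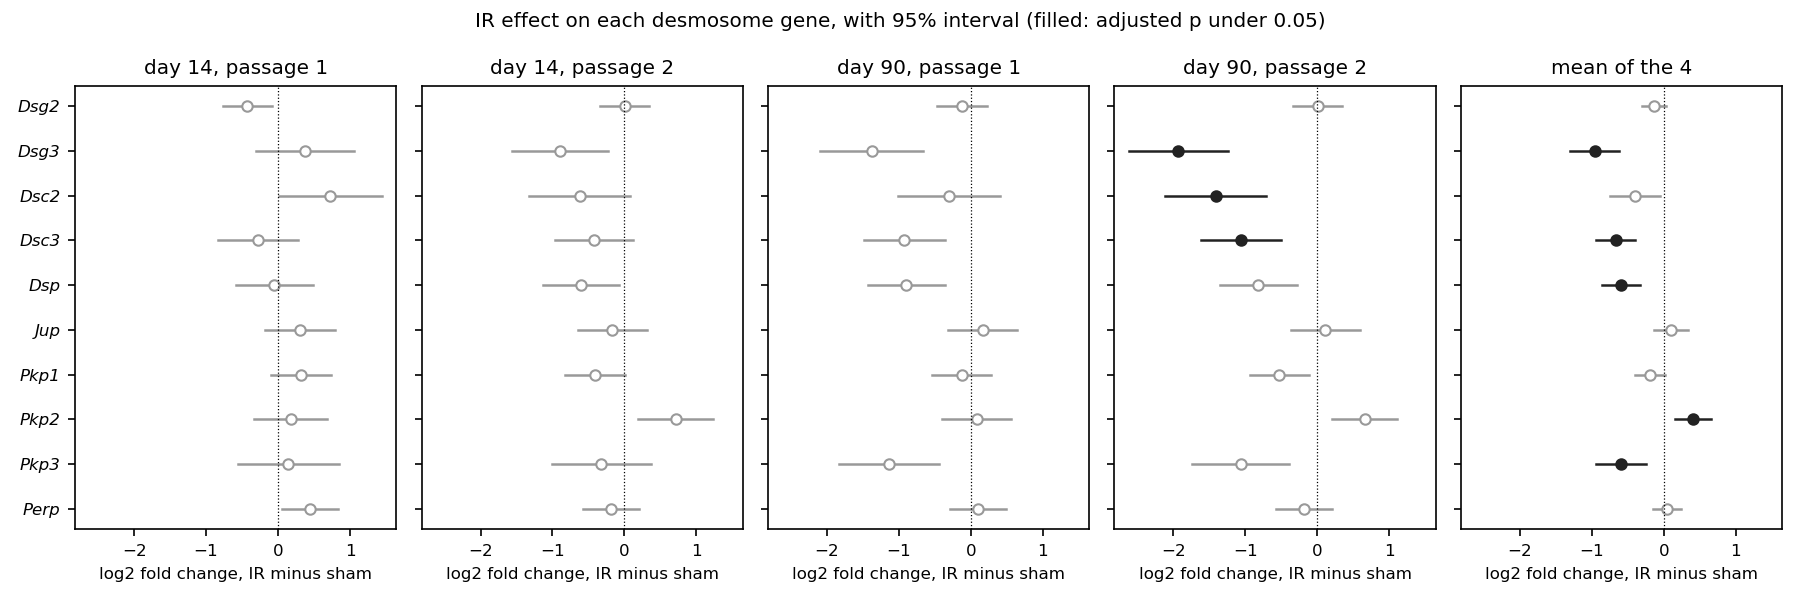
Fitted log2 fold change of IR over sham (horizontal axis) with its 95% interval for each of the 10 genes (vertical axis), 1 panel per day and passage and 1 for the mean of the 4; filled black points have an adjusted p under 0.05. Dsg3, Dsc2 and Dsc3 are filled at day 90, passage 2, and Dsg3, Dsc3, Dsp, Pkp3 and, on the positive side, Pkp2 in the mean; Dsg2, Jup and Perp lie near 0 in the mean.

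At day 90, passage 1, 0 of the 10 genes were called by edgeR and 4 had an unadjusted p under 0.05 (as had 1339 of 10563 genes); the same 4 did not overlap between groups. DESeq2 called 1, Dsg3, and 86 of 10563 genes in all. By edgeR the comparison called 0.0473% of all genes, and 19.5% of all genes had groups that did not overlap. Dsg3 was at 120, 60.6 and 61.3 CPM in sham and at 25.3, 36.3 and 30.6 CPM in IR, which differ by −1.38 on the log2 scale (SE 0.35, adjusted p = 0.123). The highest sham value belongs to replicate 1, the library with the deviating Gm42418 share, but the other 2 also lay above all IR libraries. Pkp3 had a log2 fold change of −1.14 (SE 0.34), Dsc3 of −0.92 (SE 0.27) and Dsp of −0.90 (SE 0.26), with adjusted p from 0.148 to 0.153. Pkp3 was the 1 gene called with the 3 deviating libraries left out. Dsc2 was at 137, 53.5 and 64.9 CPM in sham and at 47.4, 67.4 and 90.5 CPM in IR, and the 2 groups overlapped (log2 fold change −0.30, SE 0.34). Without sham replicate 1 that value became 0.20.

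At day 14, passage 2, 0 of the 10 genes were called by edgeR or DESeq2, 3 had an unadjusted p under 0.05 (as had 711 of 10563 genes), and 0.0189% of all genes were called. Dsg3 was at 97.8, 152 and 130 CPM in sham and at 65.9, 68.4 and 69.2 CPM in IR. These IR values lay within a narrow band below all sham libraries (log2 fold change −0.90, SE 0.32, adjusted p = 0.596). Dsp had −0.60 (SE 0.26) and Pkp2 0.71 (SE 0.25), with Pkp2 at 7.39, 9.45 and 9.90 CPM in sham and at 12.04, 20.6 and 12.3 CPM in IR, where 1 IR library was far above the others. With Pkp1, these made 4 genes without overlap, against 11.5% of all genes.

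In passage 1 at day 14 the values of Dsc2 and Dsg3 were positive, unlike those in the other 3 pairs, and those of Dsc3 (−0.28, SE 0.27) and Dsg2 were negative. Dsc2 was at 58.1, 65.8 and 80.6 CPM in sham and at 125, 137 and 80.2 CPM in IR, which differ by 0.73 on the log2 scale (SE 0.34, adjusted p = 0.439). Dsg3 was at 75.6, 64.6 and 62.6 CPM in sham and at 90.9, 99.2 and 74.5 CPM in IR (0.38, SE 0.33). For Dsg2 the sham libraries, at 244, 239 and 236 CPM, were the 3 highest of the series, and the IR libraries were at 187, 143 and 203 CPM (−0.43, SE 0.17, adjusted p = 0.328). Perp was at 1109, 1186 and 1384 CPM in sham and at 1824, 1763 and 1422 CPM in IR (0.44, SE 0.19, adjusted p = 0.379). Again 0 of the 10 genes were called by edgeR or DESeq2, 3 had an unadjusted p under 0.05 (as had 1160 of 10563 genes), and 0.341% of all genes were called. The median over the 10 genes was 0.24, against −0.01 over all tested genes. Dsg2 and Perp were the 2 genes without overlap, as were 17.2% of all genes.

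Averaged over the 4 combinations of day and passage, the IR effect was called for 5 of the 10 genes, 4 lower and 1 higher. Over all genes 11% were called, 6.09% higher and 4.91% lower. Dsg3 fell by 0.96 on the log2 scale (SE 0.17, adjusted p = 0.000941), Dsc3 by 0.67 (SE 0.13, adjusted p = 0.00271), Dsp by 0.59 (SE 0.13, adjusted p = 0.00515) and Pkp3 by 0.59 (SE 0.17, adjusted p = 0.0233). The calls of Dsg3, Dsc3 and Dsp held in all 33 alternatives, and Pkp3 lost its call when the Gm42418 share was a covariate (adjusted p = 0.0940). Pkp2 rose by 0.41 (SE 0.12, adjusted p = 0.0291), and its call was lost in 10 of the 33 alternatives (adjusted p up to 0.118). The 5 genes without a call were Dsc2 (−0.40, SE 0.17, adjusted p = 0.132), Pkp1 (−0.19, SE 0.10), Dsg2 (−0.13, SE 0.08), Jup (0.10, SE 0.12) and Perp (0.04, SE 0.09). The 95% intervals of the last 3 were −0.31 to 0.04 for Dsg2, −0.14 to 0.34 for Jup and −0.15 to 0.24 for Perp. This mean uses the same libraries as the 4 comparisons above and is no separate evidence. The fit treats libraries of the later passage as independent of the earlier passage, from which those organoids were grown. The SEs and p-values of the mean may therefore be too small. None of the 33 alternatives is known to account for that, as whether replicate numbers pair the samples was not settled. In bulk organoids, fewer cells of a type and less RNA per cell cannot be told apart.

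Whether the IR effect itself differed with passage or day was tested with interaction terms, and 0 of the 10 genes were called in any of the 4, by edgeR or DESeq2. The interactions called 0% of all genes for passage at day 14, 0% for passage at day 90, 0.0189% for day in passage 1 and 0.00947% for day in passage 2. The lowest adjusted p of a desmosome gene was that of Dsg3 for day in passage 1, where the IR effect was lower at day 90 by 1.76 on the log2 scale (SE 0.48, adjusted p = 0.243). For passage at day 14 the values were −1.28 for Dsg3 (SE 0.46, adjusted p = 0.548) and −1.35 for Dsc2 (SE 0.48, adjusted p = 0.543). Unadjusted p-values under 0.05 were found for 4 genes for passage at day 14, 1 for passage at day 90, 4 for day in passage 1 and 1 for day in passage 2, beside 729, 407, 857 and 543 of 10563 genes. The opposite signs of Dsc2 and Dsg3 at day 14, passage 1 and elsewhere are therefore not shown to differ.

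Promoter sequence from RefSeq (GRCm38.p6) was examined for only 2 of the 10 genes, Dsp and Jup. The linker Dsp fell in the mean IR effect and its binding partner Jup was not called, but the pair was not picked for that. Any link between the 2 promoter sequences and the IR results was not tested. Each is the 250 bases before the start of the gene, 5′ to 3′ on the gene's own strand: chr13:38151044-38151293 on the plus strand for Dsp and chr11:100397791-100398040 on the minus strand for Jup. Capitals mark the GC box GGGCGG, searched on both strands.
Dsp: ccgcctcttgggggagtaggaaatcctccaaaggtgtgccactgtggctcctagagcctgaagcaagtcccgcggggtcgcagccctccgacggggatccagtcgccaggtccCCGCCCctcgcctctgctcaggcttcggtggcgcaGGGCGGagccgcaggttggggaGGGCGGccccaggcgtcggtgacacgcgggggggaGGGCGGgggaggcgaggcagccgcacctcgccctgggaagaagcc
Jup: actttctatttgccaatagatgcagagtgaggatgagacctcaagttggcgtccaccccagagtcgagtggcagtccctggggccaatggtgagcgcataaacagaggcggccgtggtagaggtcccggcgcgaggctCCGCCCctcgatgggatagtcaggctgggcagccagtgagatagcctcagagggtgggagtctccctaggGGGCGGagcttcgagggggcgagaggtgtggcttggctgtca
The Dsp window holds 4 GC boxes and the Jup window 2, and 32.7% of the 32851 promoters in the table hold at least 1 in the same 250 bases. The grainyhead core AACCGG (5.62% of promoters) and the E-box CAGGTG (17.2%) had no match in either window on either strand, which says only that these letters are not there.

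Within a library, the balance between the 2 desmogleins was compared next. The log2 ratio of Dsg3 to Dsg2 counts (1 added to each) was 0.48, −1.14 and −0.48 in the sham libraries of day 90, passage 2 and −1.64, −3.07 and −2.51 in the IR libraries. Every IR library lay below every sham library. The same was seen at day 90, passage 1, with means of −1.24 ± 0.66 in sham and −2.43 ± 0.29 in IR, and at day 14, passage 2, with −0.32 ± 0.13 and −1.18 ± 0.32 (SD, n = 3). At day 14, passage 1 the order was the other way round, at −1.68, −1.88 and −1.91 in sham and −1.04, −0.52 and −1.44 in IR, also without overlap. Such a ratio does not depend on the scaling of the libraries.

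The desmocollins had no such pattern: Dsc3 to Dsc2 was 0.50 ± 0.28 in sham and −0.49 ± 0.49 in IR at day 14, passage 1, but −0.16 ± 0.50 and 0.07 ± 0.38 at day 90, passage 2, where both genes fell. Among plakophilins, Pkp1 to Pkp2 went from 3.79 ± 0.32 in sham to 2.59 ± 0.52 in IR at day 90, passage 2 and from 4.75 ± 0.37 to 3.66 ± 0.41 at day 14, passage 2, and was nearly level in both passage 1 pairs. Pkp1 to Pkp3 was highest in the IR libraries of day 90, passage 1 (1.64 ± 0.22) and lowest in the sham libraries of day 90, passage 2 (−0.11 ± 0.11). These ratios are given as descriptions, with no test.

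**Figure D3:**
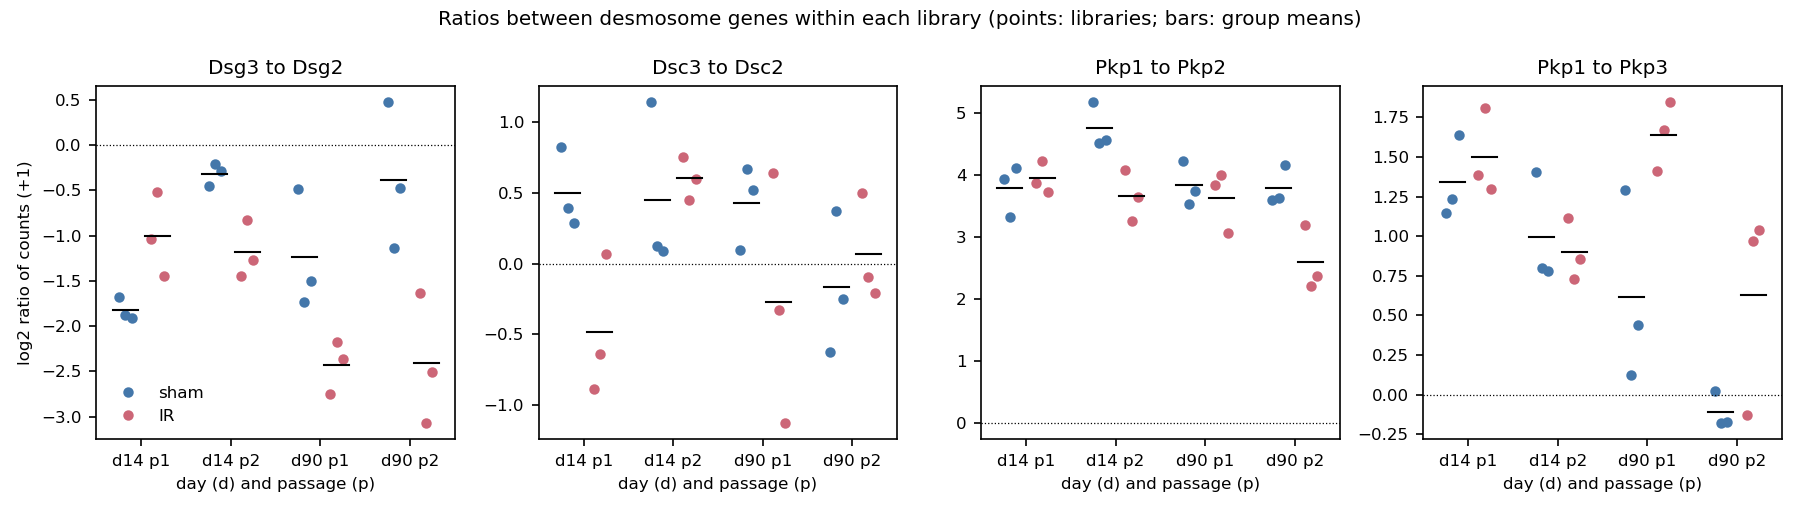
Log2 ratio of the counts of 2 desmosome genes within each library (vertical axis, 1 added to each count) by day (d) and passage (p); points are libraries, blue for sham and red for IR, bars are means of 3 and the dotted line marks equal counts. The Dsg3 to Dsg2 ratio of the IR libraries lies below sham in 3 of the 4 pairs and above it at day 14, passage 1.

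Passage and day by themselves gave 0 called desmosome genes in any of 8 comparisons by edgeR. These share groups with the IR comparisons, and passage 2 was grown from passage 1. Passage 2 against passage 1 called 1.18% of all genes in sham at day 14, 1.38% in IR at day 14, 1.36% in sham at day 90 and 0% in IR at day 90, and the numbers of desmosome genes with an unadjusted p under 0.05 were 5, 2, 1 and 3 of 10, beside 1208, 1493, 1474 and 1066 of 10563 genes. DESeq2 called 1 desmosome gene in these 4, Dsg2 in sham at day 14, with 184 of 10563 genes called in all. There Dsg2 went from 240 to 156 CPM on average (log2 fold change −0.62, SE 0.17, adjusted p = 0.0736) and Dsg3 from 67.6 to 127 CPM (0.91, SE 0.32, adjusted p = 0.231). Both were without overlap, as were 17% of all genes. In sham organoids of day 14 the 2 desmogleins thus had values of opposite sign between passages.

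Day 90 against day 14 called 0% of all genes in sham at passage 1, 0.17% in IR at passage 1, 0.426% in sham at passage 2 and 0.435% in IR at passage 2, and 2, 4, 4 and 5 of the 10 desmosome genes had an unadjusted p under 0.05, beside 1025, 720, 1448 and 1429 of 10563 genes. DESeq2 called Dsg3 in IR at passage 1 and Dsc3 in IR at passage 2, with 35 and 168 of 10563 genes called in all. Among IR organoids, Dsg3 averaged 88.2 CPM at day 14 and 30.7 CPM at day 90 in passage 1 (−1.52, SE 0.35, adjusted p = 0.117), and Dsc3 115 and 53.2 CPM in passage 2 (−1.12, SE 0.27, adjusted p = 0.0604). In sham the same genes had 67.6 and 80.5 CPM (Dsg3, passage 1) and 156 and 112 CPM (Dsc3, passage 2). Perp had negative values between day 14 and day 90 in all 4 comparisons, from −0.22 to −0.59. Pkp3 had positive ones in both sham comparisons, 0.84 (SE 0.33) in passage 1 and 0.74 (SE 0.32) in passage 2. Its groups did not overlap in either, as with 15.5% and 22.3% of all genes. Over the alternatives the passage 2 value ran from 0.19 to 0.98. In sham at passage 2 the Gm42418 share was 13.1% to 15.5% at day 90 and 22.6% to 28.4% at day 14.

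The desmosome genes did not vary as 1 block across the 24 libraries. Dsg3 and Dsp varied most alike of any pair (Pearson's r = 0.90 of log2(CPM + 1)), followed by Dsc3 and Dsp (0.83), Dsg3 and Dsc3 (0.81) and Dsg3 and Dsc2 (0.81). Jup and Perp formed another pair (0.78). Pkp2 ran against Dsc3 (−0.76), Dsp (−0.62) and Dsg3 (−0.58), and Jup against Pkp3 (−0.62). These are descriptions: the points share groups, culture and library preparation. After the mean of each group was taken off, Dsg3 and Dsp were at 0.72 and Dsg3 and Dsc2 at 0.70. Dsc3 and Dsp were then at 0.52, Dsg3 and Dsc3 at 0.47 and Jup and Perp at 0.60. Pkp2 was at −0.48 with Dsc3, −0.20 with Dsp and −0.02 with Dsg3. Dsc2 and Perp were at 0.83, and Jup and Pkp3 were at −0.85.

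**Figure D4:**
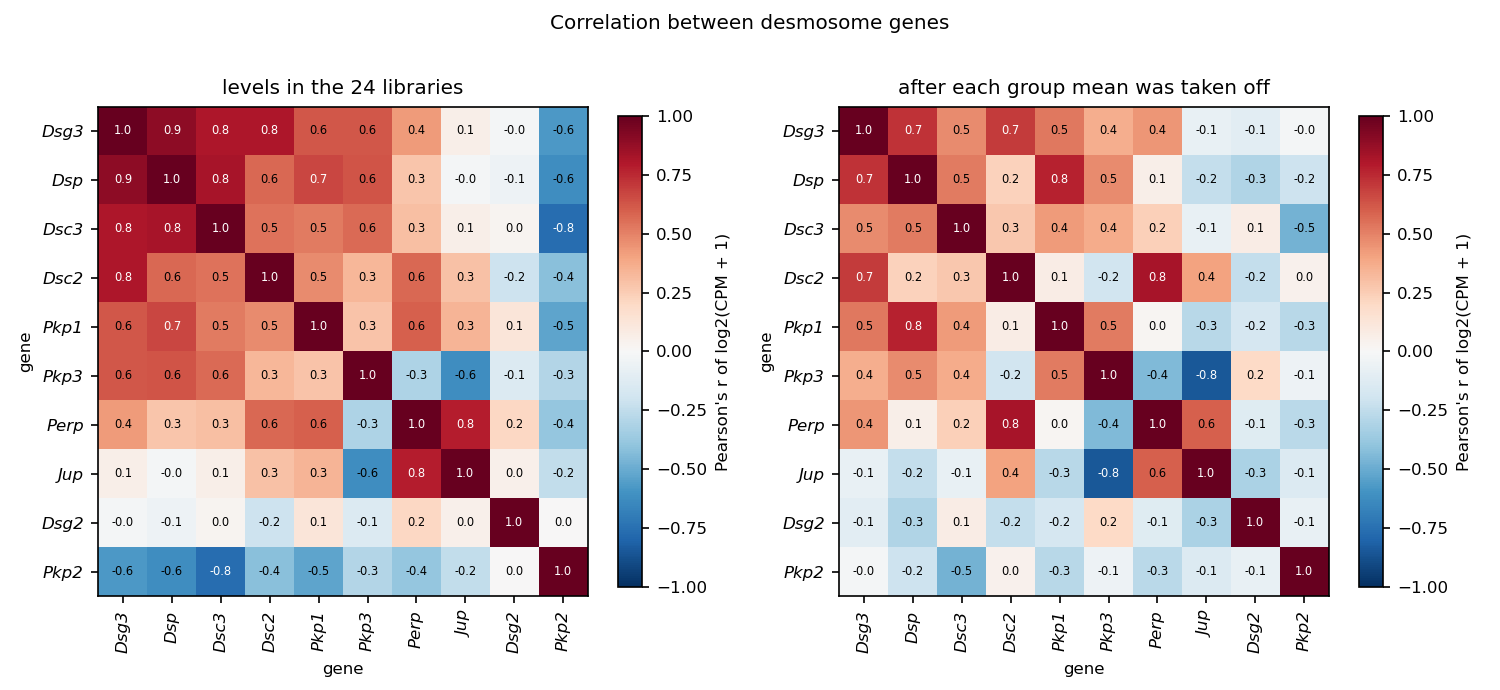
Pearson's r of log2(CPM + 1) for each pair of desmosome genes (both axes) over the 24 libraries, at left as measured and at right after each group mean was taken off; red is positive and blue negative. Dsg3, Dsp, Dsc3 and Dsc2 form a red block at left, Jup and Perp a pair apart from it, and Jup against Pkp3 is the deepest blue field at right.

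The levels of some of these genes also ran with the makeup of the library. Pkp3 had a Pearson's r of −0.66 with the Gm42418 share over the 24 libraries (Spearman's coefficient −0.52) and Jup of 0.58 (0.46), with Perp at 0.40 (0.28) and Pkp1 at 0.29 (0.39). For Dsg3 (−0.20), Dsc3 (−0.13), Dsc2 (−0.11) and Dsp (−0.05) the values were near 0. IR libraries at day 90, passage 2 had Gm42418 shares of 13.5% to 24.3% against 13.1% to 15.5% in sham, and those at day 90, passage 1 had 26.9% to 29.0% against 11.8% to 28.6%. With the share as a covariate, the mean IR effect was −0.47 for Pkp3 (−0.59 without it) and 0.04 for Jup (0.10 without it), and neither was called.

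For each desmosome gene, the other genes that varied most alike with it, by the same r, were listed. Over the 24 libraries Dsg3 was closest to Krt6a (r = 0.94), a keratin of activated and stratified epithelia, and to Dmkn (0.91). Dsc2 was closest to Krt6b (0.96) and Krtdap (0.94), a keratinocyte differentiation gene, and stayed so after the group means were taken off (0.95 and 0.94). Krt6a and Krt6b are close copies, so the split of reads between them is uncertain. Dsc3 was closest to Robo2 (0.93) and Krt15 (0.91), a basal keratin, and Dsp to Map6 (0.92), Krt14 (0.91) and Lgals7 (0.91). Pkp1 was likest Anxa2 (0.88) and Krt14 (0.84).

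The remaining genes had other neighbours. Jup was likest Txn1 (0.89), a thioredoxin, and Atp5b (0.88), a subunit of ATP synthase, and Perp was likest Nqo1 (0.86), a quinone reductase. Pkp3 was likest Psmb1 (0.95), a proteasome subunit, Pkp2 was likest Sestd1 (0.84) of the genes reported and Dsg2 was likest Plagl1 (0.73), the weakest best match of the 10. These likenesses are over the same 24 libraries, which share depth, medium and group.

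Keratins, the filaments that desmosomes anchor, split in 2 directions at day 90, passage 2. Of 11 tested, 4 fell and 3 rose, with a median log2 fold change of −1.38. Over all genes 4.92% were called in that comparison and 11% in the mean IR effect. These shares stand beside the counts of this and the later lists. Krt6a (−2.50, SE 0.45) and Krt6b (−6.93, SE 1.46), both of activated and squamous cells, were lower, while the simple epithelial keratins Krt8 (1.75, SE 0.21), Krt18 (1.58, SE 0.22) and Krt7 (1.56, SE 0.29) were higher (adjusted p from 0.000195 to 0.00760). In the mean IR effect Krt5, Krt15, Krt6a and Krt6b fell and Krt7, Krt8 and Krt18 rose. Krt8 was also the 1 keratin called at day 14, passage 2 (1.22, SE 0.21, adjusted p = 0.0454) and at day 90, passage 1 (1.16, SE 0.20, adjusted p = 0.0392).

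Of the other desmosomal and cornified-envelope genes, 6 of 10 could be tested. Cdsn, which encodes corneodesmosin of the cornified layer, was the 1 called at day 90, passage 2, where it fell by 3.47 on the log2 scale (SE 0.84, adjusted p = 0.0178), and the 1 called at day 14, passage 1, where it rose by 4.54 (SE 0.96, adjusted p = 0.0460). Cdsn had 313 counts in all, found in 22 of the 24 libraries, with a median of 3.36 CPM and a highest value of 35.9 CPM. Its fold changes thus rest on few reads. The plakophilin relative Pkp4 and the plakins Ppl and Evpl were not called in these comparisons, with log2 fold changes at day 90, passage 2 of 0.16, −0.42 and −0.40. The median of the 6 was −0.41 at day 90, passage 2 and 0.76 at day 14, passage 1.

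Adherens junctions sit beside desmosomes and hold actin. Of 10 genes, 1 rose and 0 fell at day 90, passage 2: Ctnna1, alpha-catenin (0.54, SE 0.13, adjusted p = 0.0155), with a list median of 0.30. In the mean IR effect Ctnna1 and Vcl, vinculin, rose (0.20 and 0.27, adjusted p = 0.0464 and 0.0419). Over all genes 4.92% were called at day 90, passage 2 and 11% in the mean. The few calls of the adherens junction list do not set it apart from those shares. Cdh1, the E-cadherin gene, had −0.02 at day 90, passage 2. In hemidesmosomes, which anchor basal cells to the matrix, 0 of 6 genes were called at day 90, passage 2 and 3 fell in the mean IR effect: Itga6 (−0.56, SE 0.11), Dst (−0.60, SE 0.15) and Col17a1 (−0.43, SE 0.09), with adjusted p from 0.00258 to 0.0114.

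Among 9 tested transcription factors of the epithelial state, Trp63, which encodes p63 of basal cells, fell at day 90, passage 2 (−1.14, SE 0.25, adjusted p = 0.00939) and in the mean IR effect (−0.98, SE 0.13, adjusted p = 0.000114). Snai2, a repressor of E-cadherin, fell in the mean (−0.67, SE 0.15). None of the 9 rose in either. Of 5 genes of desmosome turnover, 0 were called at day 90, passage 2 and Prkca, a protein kinase C that weakens desmosomal adhesion, fell in the mean IR effect (−0.35, SE 0.10, adjusted p = 0.0219). With 11% of all genes called in the mean, 1 call among 5 genes does not set the turnover list apart.

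Markers of squamous cells are given beside these results; their summed level overlapped between IR and sham in 3 of the 4 pairs, and at day 14, passage 1 it was higher in every IR library. Of 16 listed marker names, of which Lor and Loricrin name the same gene, 10 were tested, and 4 fell and 0 rose at day 90, passage 2. In the mean IR effect 1 fell and 0 rose. Their summed level at day 90, passage 2 was 266 to 994 CPM in sham and 156 to 282 CPM in IR, at day 90, passage 1 it was 119 to 540 and 92.3 to 166 CPM, at day 14, passage 2 it was 198 to 401 and 208 to 336 CPM, and at day 14, passage 1 it was 74.9 to 102 CPM in sham and 128 to 505 CPM in IR. Krt1 had 1 count and Sprr2a1 none in the 24 libraries. The summed level of 8 acinar markers was 41.3 to 59.3 CPM in sham and 27.6 to 35.4 CPM in IR at day 90, passage 2, with 3 tested and 1 lower. In the other pairs these sums overlapped. They were 58.7 to 74.3 CPM in sham and 23.7 to 78.4 CPM in IR at day 90, passage 1. At day 14 they were 40.7 to 99.3 and 50.5 to 119 CPM in passage 1, and 24.4 to 77.1 and 19.6 to 51.6 CPM in passage 2. Summed endothelial and immune markers were at most 2.06 and 49.0 CPM in any library, and the immune sum at day 14, passage 1 was 8.10 to 9.24 CPM in sham and 17.3 to 49.0 CPM in IR. The part of a shift in cell types in the changes of the desmosome genes was not tested.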

How the data were processed

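The files the authors deposited hold unnormalized counts for each gene of a library, made with the QuantSeq 3' kit per the labels' protocols. The submitters' processing notes name bcl2fastq and GRCm39. The aligner, counter, annotation and strand are not given in the sources at hand, so overlapping or antisense genes cannot be told apart. Symbols came by identifier from a reference annotation (47224 of 47643 matched). The 5 lines that name no gene were left out; reads on no gene were 11.5% to 26.5% of a library. Counts were tested with edgeR 4.0.16 in R 4.3.3: TMM factors, filterByExpr, 1 mean per group over all 24 libraries, Benjamini-Hochberg over 10563 genes, two-sided, called at 0.05. The SE is the fold change over the root of F. DESeq2 1.42.0 and other settings were alternatives, and scripts were tested on simulated data. Replicates differed by more than sampling noise (chi-square per degree of freedom 2.07 to 26.7). Of each other gene list, up to 3 called genes with the smallest p were named by rule; further genes named for context were chosen with their values seen. The 10 genes, the lists and the tests were chosen with earlier results of these data known. Some genes that the rule names are not reported here.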

Additional observations from a re-analysis of the deposited data

How the results depend on the processing

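Across the alternatives, 317 counts of called desmosome genes were computed, of which 278 stayed within 1.5 times the reported count, 34 were higher and 5 lower. Most of the 317 belong to comparisons with 0 reported calls, where staying means that the alternative also called 0. Only day 90, passage 2 and the mean IR effect had reported calls. Of 213 recomputed log2 fold changes of called genes, 192 kept their call, 21 lost it and 0 changed sign. At day 90, passage 2 the reported 3 genes became 5 with DESeq2, 5 with no filter, 5 with the replicate block, 1 with only the compared groups, 7 with the deviating libraries left out, and 1 to 7 with a library left out. Over all genes, calls there went from 520 to 628 with DESeq2, 1044 with no filter and 559 with the replicate block. They went to 85 with only the compared groups and 1461 with the deviating libraries left out. They also moved with 1 library left out, as given above for IR replicate 1. The range of 1 to 7 is thus not shown to be particular to the desmosome genes. The mean IR effect went from 5 to 3 genes with the Gm42418 covariate, and from 1162 to 532 over all genes. With no filter, IR comparisons called 1 gene at day 14 in each passage and 4 at day 90, passage 1, and in these 3 comparisons calls over all genes rose from 36, 2 and 5 of 10563 to 460, 200 and 465 of 22785, and interactions called 2 (passage, day 14), 1 (passage, day 90) and 3 (day, passage 1); passage in sham called 3 at day 14 and 2 at day 90, and day called 1 in sham in each passage and 2 in IR in each passage. Over all genes, no filter called 241, 95 and 196 in those interactions and 539 and 704 for passage in sham. For day it called 223 and 427 in sham and 180 and 560 in IR. DESeq2 called 1 at day 90, passage 1, 1 for passage in sham at day 14 and 1 for day in IR in each passage. Over all genes it called 86, 184, 35 and 168. Only the compared groups gave 1 for passage in sham at day 14 and 1 for day in IR, passage 1, with 156 and 3 over all genes. Leaving out the deviating libraries gave 1 each at day 90, passage 1, for IR by day in passage 2, for passage in sham and in IR at day 14 and in IR at day 90, and for day in sham and in IR at passage 1, and 4 for day in IR, passage 2, where leaving out 1 library gave 0 to 2. Without the deviating libraries these comparisons called, in that order, 168, 22, 255, 88, 84, 74, 27 and 308 of 10761 genes. The replicate block gave 1 for passage in sham at day 14 (block within day and treatment) and 1 for day in IR, passage 2. Over all genes these 2 fits called 221 and 50. Whether replicate numbers pair the samples was not settled. In 0 of 12 comparisons did all 3 correlate over 0.1, but single ones reached 0.42 (passage in IR, day 90, replicate 1). The numbers used are those of the titles. For 4 of the 6 day 90 IR libraries the deposited files carry other numbers, which were not used. A pairing by those numbers would be missed. Total counts moved the median of all genes to 0.24 and 0.23 for day in sham in passages 1 and 2, to −0.22 and −0.15 for IR by day in passages 1 and 2, to 0.11 for IR by passage at day 90, and to −0.19 and −0.10 for IR at day 90, passages 1 and 2; at day 90, passage 1, Jup, Pkp2 and Perp changed sign. A pseudocount of 5 moved a log2 ratio by at most 0.35 and kept 28 of the 30 likest genes. The cause of these shifts was not tested. Pkp2, at 13 to 66 reads, is the gene that depth limits most.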
